A study of Mus musculus with 14 samples.

Results

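Gpnmb, Spp1, Trem2, Tyrobp, Cd9, Cd63, Lgals3, Atp6v0d2, Tm4sf19 and Rgs1 are 10 genes that are often listed as markers of lipid-associated macrophages, the lipid-laden macrophages of obese adipose tissue. They were chosen by name, with earlier results of these data known, so their counts below are a description of this set. The Ensembl identifiers of the deposited tables were matched to mouse symbols, each gene matched 1 identifier, and the set is 10 of the 38553 genes listed. The values are FPKM (fragments scaled by transcript length and by the mapped fragments of the library) in 14 poly(A) RNA-seq libraries of adipocytes isolated from male C57BL/6 mice. High-fat epididymal (3 libraries), normal-diet epididymal (3), high-fat inguinal (3), normal-diet inguinal (3), high-fat brown (1) and normal-diet brown (1) adipocytes make up the 6 groups. The high-fat diet was Research Diets D12492 and the normal diet was regular chow, each given for 16 weeks from weaning at 3 weeks of age. Epididymal fat is a visceral white depot, inguinal fat a subcutaneous white depot, and the brown adipocytes came from interscapular fat. Tissue was digested with collagenase for 20 min (white depots) or 40 min (brown), and the layer of floating cells was taken. Each library pooled the tissue of 3 to 5 mice, so variation among single mice cannot be seen. Floating adipocytes can carry other cells with them, and no sort was applied, so a transcript in these libraries is not thereby a transcript of the adipocyte.

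Macrophages that gather around dying adipocytes take up the lipid these release and break it down in lysosomes. TREM2, a surface receptor that binds lipids and lipoproteins, has no signalling tail of its own and signals through the adaptor TYROBP (also called DAP12), which recruits the kinase SYK. The other 8 genes encode secreted or surface proteins, membrane proteins of late endosomes and lysosomes, a subunit of the proton pump that acidifies lysosomes, and a brake on G protein signalling. CD9, CD63 and galectin-3 are also made by many other cell types, so their transcripts are less specific for macrophages than those of Trem2 or Atp6v0d2.

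The adipocyte identity of the libraries was checked first. The summed level of 8 adipocyte genes (Adipoq, Plin1, Cidec, Lipe, Pnpla2, Adrb3, Retn and Lep) lay between 3614 and 9803 FPKM over the 14 libraries, and none of the 8 was at 0. The lowest sums were 3614 and 3913 FPKM in normal-diet inguinal replicates 2 and 0, against 8504 FPKM in replicate 1 of that group. The summed level of 13 general macrophage genes, among them Adgre1, Csf1r and the C1q genes, was 632 to 1125 FPKM in high-fat epididymal libraries, against 247 to 537 FPKM in normal-diet ones. In inguinal libraries it was 159 to 267 FPKM on the high-fat diet and 124 to 430 FPKM on the normal diet, and in brown libraries 94.1 FPKM on the high-fat diet and 32.4 FPKM on the normal diet. In these bulk libraries, a change in the number of macrophages and a change in their RNA content per cell cannot be told apart. Normal-diet inguinal replicates 0 and 2 stood apart from the rest: the lymphocyte gene Cd79a, a part of the B cell receptor, had 166, 19.1 and 178 FPKM in normal-diet inguinal replicates 0, 1 and 2, and at most 2.78 FPKM in the other 11 libraries. The inguinal and interaction counts below are also given without these replicates, a fit in which replicate 1 alone stands for the normal-diet inguinal group and its spread is taken to be that of the other groups.

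RefSeq promoters were at hand for 7 of the 10 genes (not for Tyrobp, Atp6v0d2 or Rgs1), and 3 are shown here because their genes mark the contrast described below: Gpnmb and Trem2 rose with high-fat feeding in epididymal and inguinal libraries alike, and Spp1 rose in epididymal and fell in inguinal libraries. Each sequence runs 5′ to 3′ from 250 bases before the annotated start of the gene to 30 bases into it (GRCm38.p6, the build that the mm10 of the submitters corresponds to). Capitals mark matches to the motifs searched.
Gpnmb, chr6:49036268-49036547, plus strand: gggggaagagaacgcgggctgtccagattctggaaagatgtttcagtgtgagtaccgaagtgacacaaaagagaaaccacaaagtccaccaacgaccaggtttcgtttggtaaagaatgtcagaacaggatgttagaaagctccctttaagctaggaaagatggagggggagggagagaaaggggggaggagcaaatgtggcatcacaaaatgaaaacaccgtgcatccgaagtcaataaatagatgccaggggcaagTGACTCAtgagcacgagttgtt
Trem2, chr17:48346151-48346430, plus strand: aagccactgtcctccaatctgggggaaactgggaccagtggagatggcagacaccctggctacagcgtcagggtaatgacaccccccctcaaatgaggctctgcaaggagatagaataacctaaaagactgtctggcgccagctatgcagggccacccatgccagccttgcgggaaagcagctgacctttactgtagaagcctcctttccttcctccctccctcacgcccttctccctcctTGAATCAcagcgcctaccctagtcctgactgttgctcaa
Spp1, chr5:104434861-104435140, plus strand: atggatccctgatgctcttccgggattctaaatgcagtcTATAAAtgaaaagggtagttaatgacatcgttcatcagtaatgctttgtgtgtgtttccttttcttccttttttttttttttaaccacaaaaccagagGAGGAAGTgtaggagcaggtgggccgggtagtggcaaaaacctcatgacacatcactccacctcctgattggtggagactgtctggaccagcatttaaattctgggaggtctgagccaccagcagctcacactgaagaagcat
The capitals in Gpnmb (TGACTCA, from 9 bases after the start) and in Trem2 (TGAATCA, from 9 bases before the start) match the AP-1 motif TGANTCA, which 7.81% of the 32851 promoters in the same table hold on either strand. The AP-1 motif was in 2 of the 7 windows, those of Gpnmb and Trem2. Lgals3 and Tm4sf19, also called higher in both white depots, hold none in their windows, and neither does Spp1. The capitals in Spp1 are a TATAAA beginning 211 bases before the start (13.6% of promoters hold one) and a GAGGAAGT beginning 113 bases before it. The latter has the letters of a PU.1-type site (3.20% of promoters). The E-box CACGTG, which transcription factors of the MiT family bind, was in 0 of the 7 windows, against 7.15% of all promoters, and the related CATGTG was in Cd9 alone (14.2% of all promoters). Each motif was searched on both strands over windows of 300 bases (250 before the start and 50 after it), and the marked matches do not overlap. For Cd63 and Tm4sf19 the start used (128909345 and 32400506) lies inside the gene, whose annotated start is 128896231 and 32400012. Their windows therefore do not describe the annotated gene start. These matches describe letters in a window and were not tested for binding.

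On the high-fat diet, all 10 genes rose in epididymal adipocyte libraries, and no high-fat library overlapped a normal-diet one for any of them (25.7% of all genes tested were higher without overlap). In inguinal libraries 6 of the 10 rose (Gpnmb, Trem2, Lgals3, Atp6v0d2, Tm4sf19 and Rgs1), Spp1 fell, and Tyrobp, Cd9 and Cd63 did not pass the test. A call is a limma test over the 12 white libraries on log2(FPKM + 0.5), with a Benjamini-Hochberg adjusted p under 0.05 over the 14959 genes that reached 0.5 FPKM in at least 3 white libraries. All 10 genes reached that level. For comparison, 12.2% of all genes tested were called higher and 7.35% lower on the high-fat diet in the epididymal libraries, and 9.30% were called higher and 10.2% lower in the inguinal ones. The median log2 difference of the 10 genes was 4.23 in epididymal and 1.94 in inguinal libraries, beside medians over all genes of 0.07 and −0.01. Without normal-diet inguinal replicates 0 and 2, 4 genes were called higher, where 2.93% of 14463 genes were, and 2 lower, where 3.32% were. Gpnmb (log2 difference 1.60, limma adjusted p = 0.0536) and Lgals3 (1.03, adjusted p = 0.0864) were no longer called, and Cd63 was called lower (−1.07, adjusted p = 0.0237).

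**Figure D1:**
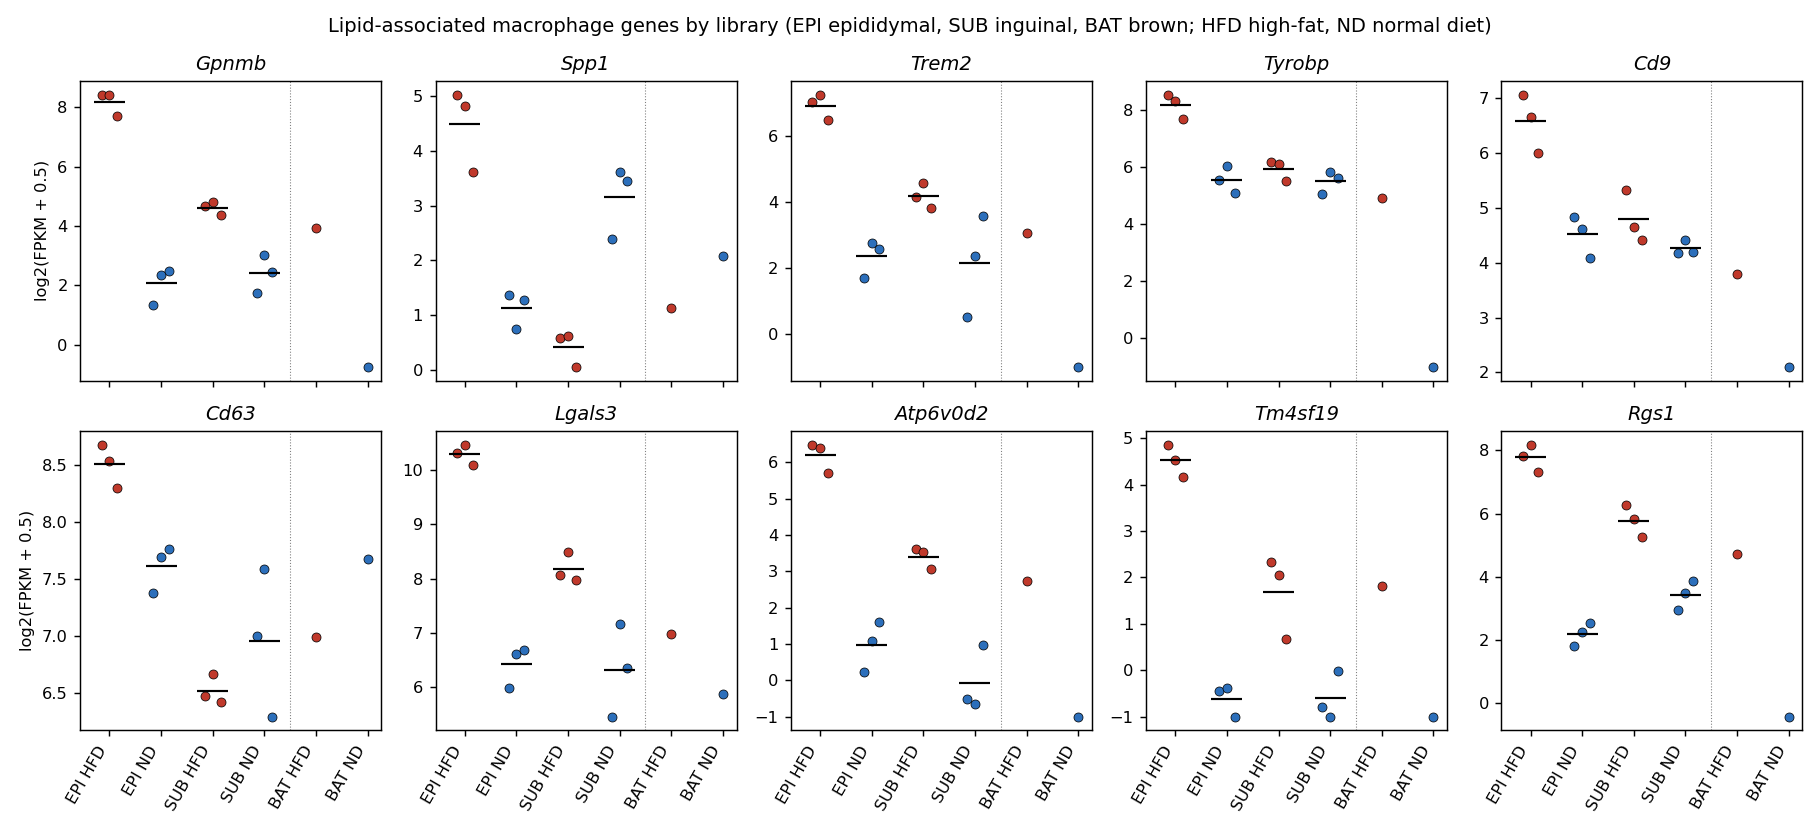
Level of each of the 10 genes in every library, as log2(FPKM + 0.5), with high-fat libraries in red, normal-diet libraries in blue and a bar at the mean of each white group; each panel has its own vertical scale. The 3 high-fat epididymal libraries lie above the other 11 libraries for 9 of the 10 genes, as they do for 9.54% of all genes tested; Spp1 is the exception, at 11.8 FPKM in both high-fat epididymal replicate 2 and normal-diet inguinal replicate 1.

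Among the receptor and its adaptor, Trem2 (ENSMUSG00000023992, chromosome 17, 48346401 to 48352276) had 132, 154 and 90.2 FPKM in high-fat epididymal replicates 0, 1 and 2, against 2.78, 6.34 and 5.47 FPKM in normal-diet epididymal libraries. The groups were far apart, and the log2 difference was 4.58 ± 0.59 (SE, limma adjusted p = 0.000248). Inguinal libraries held 17.2, 23.4 and 13.8 FPKM on the high-fat diet, against 0.941, 4.68 and 11.5 FPKM on the normal diet. These groups did not overlap, but normal-diet replicate 2 came close to the lowest high-fat library (log2 difference 2.03 ± 0.59, adjusted p = 0.0327). The call was lost in 4 of 12 cases when a single library was left out (adjusted p up to 0.108), and without normal-diet inguinal replicate 0 the difference was 1.21 (adjusted p = 0.0735). Tyrobp (ENSMUSG00000030579, chromosome 7, 30413782 to 30417582) was abundant in every white library: 370, 319 and 203 FPKM in high-fat epididymal libraries, against 46.0, 64.5 and 33.7 FPKM on the normal diet (log2 difference 2.62 ± 0.31, adjusted p = 0.000129). The adaptor thus started from a higher level than the receptor and differed by less. In inguinal libraries Tyrobp had 71.4, 68.0 and 44.6 FPKM on the high-fat diet and 33.1, 55.8 and 48.2 FPKM on the normal diet, and the groups overlapped (0.42 ± 0.31, adjusted p = 0.356). Hcst, the gene of the related adaptor DAP10, lies 130 bases from Tyrobp, and the strand setting of the counting is not given in the sources used here, so reads at their border cannot be told apart.

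The secreted and surface proteins held the largest and the most divergent values. Gpnmb (ENSMUSG00000029816, chromosome 6, 49036518 to 49058182), a transmembrane glycoprotein of lysosomes and the cell surface, had 341, 340 and 208 FPKM in high-fat epididymal libraries, against 2.06, 4.62 and 5.15 FPKM in normal-diet ones. Its log2 difference of 6.11 ± 0.36 (limma adjusted p = 2.11e-06) was the largest of the 10, and the mean FPKM was 75.2 times as high. In inguinal libraries Gpnmb had 24.97, 27.6 and 20.2 FPKM on the high-fat diet, against 2.89, 7.61 and 4.97 FPKM on the normal diet (2.21 ± 0.36, adjusted p = 0.00203). Lgals3 (ENSMUSG00000050335, chromosome 14, 47373860 to 47386167), which encodes galectin-3, a lectin that also coats damaged lysosomes, had the highest levels of the 10: 1272, 1423 and 1096 FPKM in high-fat epididymal libraries, against 62.6, 96.5 and 103 FPKM on the normal diet (3.87 ± 0.36, adjusted p = 3.06e-05). The inguinal levels were 269, 359 and 251.2 FPKM on the high-fat diet, against 43.1, 142 and 81.4 FPKM on the normal diet (1.86 ± 0.36, adjusted p = 0.00494).

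Spp1 was the gene called in opposite directions in the white depots in the fit over all 12 white libraries. Cd63 also had diet differences of opposite sign (0.90 in epididymal and −0.44 in inguinal libraries), but its inguinal one was not called. Without normal-diet inguinal replicates 0 and 2 the inguinal difference of Cd63 was −1.07. Spp1 (ENSMUSG00000029304, chromosome 5, 104435111 to 104441053) encodes osteopontin, a secreted phosphoprotein that binds integrins and CD44. It had 32.2, 27.9 and 11.8 FPKM in high-fat epididymal libraries, against 2.09, 1.18 and 1.91 FPKM in normal-diet ones (log2 difference 3.36 ± 0.41, limma adjusted p = 0.000154). In inguinal libraries it had 1.00, 1.04 and 0.536 FPKM on the high-fat diet, against 4.73, 11.8 and 10.5 FPKM on the normal diet. All 3 high-fat inguinal libraries were thus below all 3 normal-diet ones (−2.73 ± 0.41, adjusted p = 0.0013). Normal-diet inguinal replicate 1, the one with the least Cd79a, had the highest Spp1 of its group, and with that library as the only normal-diet inguinal one the difference was −3.20 (adjusted p = 0.00567).

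Cd9 (ENSMUSG00000030342, chromosome 6, 125460266 to 125494760) and Cd63 (ENSMUSG00000025351, chromosome 10, 128896231 to 128912822) encode tetraspanins, small membrane organisers of the cell surface and, for CD63, of late endosomes. In epididymal libraries they had the smallest differences of the 10. Cd9 had 134, 101 and 63.7 FPKM in high-fat epididymal libraries, against 28.2, 24.0 and 16.5 FPKM on the normal diet (log2 difference 2.06 ± 0.30, limma adjusted p = 0.000576). In inguinal libraries Cd9 had 39.6, 24.5 and 20.7 FPKM on the high-fat diet and 17.7, 20.8 and 17.7 FPKM on the normal diet, and the lowest high-fat library fell within the normal-diet range (0.53 ± 0.30, adjusted p = 0.239). Long noncoding genes overlap Cd9 in the annotation (Gm28809 and Gm26728), and a share of its reads could be theirs. Cd63 had 409, 371 and 315 FPKM in high-fat epididymal libraries, against 165, 206 and 217 FPKM on the normal diet. That difference of 0.90 ± 0.27 (adjusted p = 0.0386) was near the threshold and was lost in 9 of 12 cases when a single library was left out (adjusted p up to 0.134). In inguinal libraries Cd63 had 88.1, 101 and 85.0 FPKM on the high-fat diet and 127, 192 and 77.7 FPKM on the normal diet, with overlap (−0.44 ± 0.27, adjusted p = 0.281).

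Tm4sf19 and Atp6v0d2 were near the floor on the normal diet. Tm4sf19 (ENSMUSG00000079625, chromosome 16, 32400012 to 32409234) encodes a multi-pass membrane protein of the L6 family, relatives of the tetraspanins, and had 28.6, 22.7 and 17.5 FPKM in high-fat epididymal libraries, against 0.232, 0.271 and 0 FPKM on the normal diet (log2 difference 5.13 ± 0.43, limma adjusted p = 1.35e-05). In inguinal libraries it had 4.57, 3.68 and 1.10 FPKM on the high-fat diet, against 0.0795, 0 and 0.490 FPKM on the normal diet (2.29 ± 0.43, adjusted p = 0.00409). With values this low on the normal diet, the size of both differences is set in part by the pseudocount of 0.5 FPKM; the pseudogene Gm20056 overlaps the gene and could share reads. Atp6v0d2 (ENSMUSG00000028238, chromosome 4, 19876838 to 19922566) encodes the d2 subunit of the vacuolar proton pump, an isoform abundant in osteoclasts. It had 89.0, 83.0 and 51.7 FPKM in high-fat epididymal libraries, against 0.678, 1.63 and 2.57 FPKM on the normal diet (5.21 ± 0.44, adjusted p = 1.7e-05). In inguinal libraries it had 11.8, 10.98 and 7.80 FPKM on the high-fat diet, against 0.201, 0.138 and 1.46 FPKM on the normal diet. That inguinal log2 difference of 3.46 ± 0.44 (adjusted p = 0.000577) was the largest of the 10 in this depot.

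Rgs1 (ENSMUSG00000026358, chromosome 1, 144244669 to 144249104), which encodes a GTPase-activating protein that damps signalling from chemokine receptors, was the other gene above 5 log2 units besides Gpnmb, Tm4sf19 and Atp6v0d2. It had 227, 290 and 158 FPKM in high-fat epididymal libraries, against 3.00, 4.28 and 5.28 FPKM on the normal diet (5.57 ± 0.32, limma adjusted p = 2.11e-06). Inguinal libraries held 76.1, 55.8 and 37.5 FPKM on the high-fat diet, against 7.26, 10.7 and 14.01 FPKM on the normal diet (2.34 ± 0.32, adjusted p = 0.000876).

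**Figure D2:**
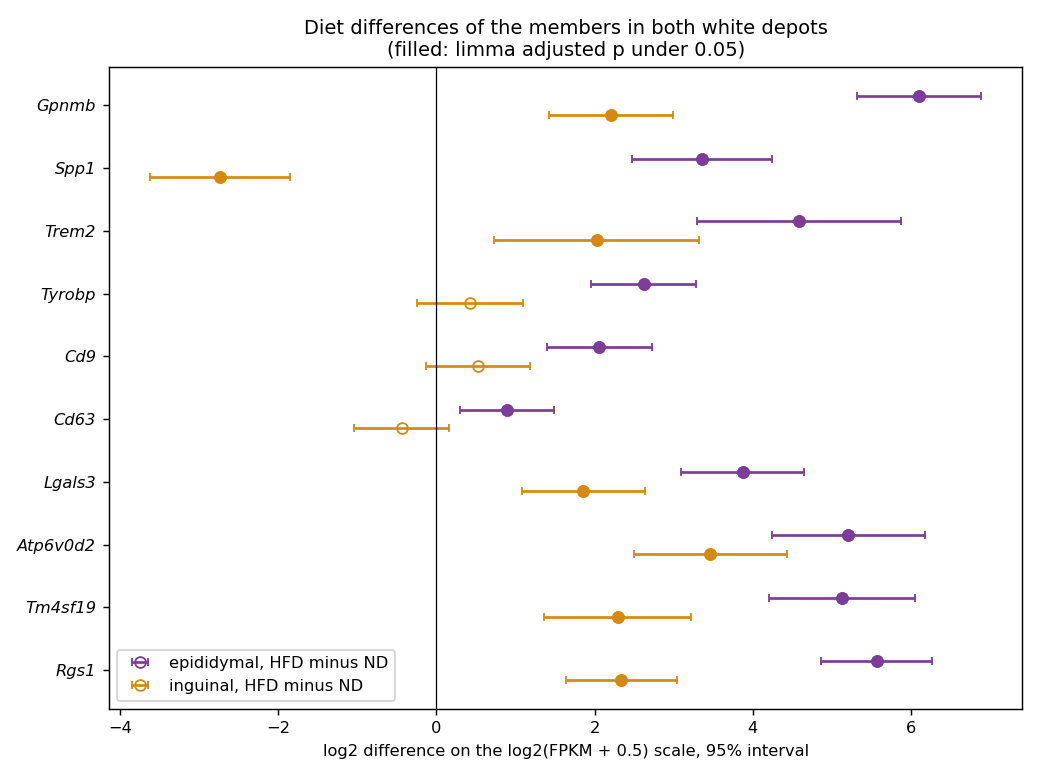
Log2 difference of each gene between high-fat and normal-diet libraries in epididymal (purple) and inguinal (orange) adipocytes on the log2(FPKM + 0.5) scale; points are limma estimates from 3 libraries per group, bars are 95% confidence intervals, and filled points have an adjusted p under 0.05. All 10 epididymal points lie above 0, from 0.90 (Cd63) to 6.11 (Gpnmb), and the inguinal points run from −2.73 (Spp1) to 3.46 (Atp6v0d2).

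Whether the diet difference itself differed between the white depots was tested as the interaction in the same fit. The difference was larger in epididymal than in inguinal libraries for 6 of the 10 genes by this test, against 4.80% of all genes called in that direction and 2.42% in the other. These were Spp1 (6.10 ± 0.57 log2 units, limma adjusted p = 0.000985), Gpnmb (3.90 ± 0.51, adjusted p = 0.00286), Rgs1 (3.23 ± 0.46, adjusted p = 0.00406), Tm4sf19 (2.84 ± 0.60, adjusted p = 0.0179), Tyrobp (2.20 ± 0.43, adjusted p = 0.0129) and Lgals3 (2.01 ± 0.51, adjusted p = 0.0354). Of the other 4, Trem2 had 2.56 (95% confidence interval 0.73 to 4.38, adjusted p = 0.0899) and Atp6v0d2 had 1.75 (0.38 to 3.12, adjusted p = 0.119). Cd9 had 1.53 (0.60 to 2.46, adjusted p = 0.0515) and Cd63 had 1.34 (0.49 to 2.18, adjusted p = 0.0596). All 4 estimates were positive and missed the threshold in this fit. Without normal-diet inguinal replicates 0 and 2, 7 of the 10 genes were called, where 3.56% of all genes were: Trem2 (2.77, adjusted p = 0.0159) and Cd63 (1.97, adjusted p = 0.00622) were then called, and Tm4sf19 was not (2.44, adjusted p = 0.072). With the replicate number as a block, Cd9 (adjusted p = 0.0158) and Cd63 (adjusted p = 0.0458) were called as well. Whether same-numbered libraries were paired was not decided by the data. Without normal-diet inguinal replicate 0 alone Trem2 was called (3.37, adjusted p = 0.00982). The Tm4sf19 call was also lost without high-fat epididymal replicate 0 (2.67, adjusted p = 0.0591) or replicate 1 (2.83, adjusted p = 0.0514). The Lgals3 call was lost in 10 of 12 cases when a single library was left out (adjusted p up to 0.0937), whereas Spp1, Gpnmb, Rgs1 and Tyrobp were called in every such fit.

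Between the depots on the high-fat diet, all 10 genes were higher in epididymal than in inguinal libraries, where 7.08% of all genes were called higher and 3.53% lower. None of the 10 overlapped, and 23.2% of all genes were higher without overlap. The largest of these differences were those of Spp1 (4.07 ± 0.41, limma adjusted p = 0.000285), which averaged 23.9 ± 10.8 FPKM in epididymal and 0.858 ± 0.280 FPKM in inguinal libraries (SD, n = 3 each), and Gpnmb (3.56 ± 0.36, adjusted p = 0.000285), with 296 ± 76.8 FPKM in epididymal and 24.3 ± 3.72 FPKM in inguinal libraries. The other 8 ran from 1.79 (Cd9) to 2.83 (Tm4sf19). Cd63, close to the threshold for diet, was also higher in epididymal libraries (365 ± 47.4 FPKM, against 91.3 ± 8.31 FPKM in inguinal ones, 1.99 ± 0.27, adjusted p = 0.00136). On the normal diet none of the 10 was called higher in epididymal libraries (2.36% of all genes were) and 2 were called lower (4.15% of all genes were). These were Spp1, at 1.73 ± 0.480 FPKM in epididymal and 8.99 ± 3.74 FPKM in inguinal libraries (−2.02 ± 0.41, adjusted p = 0.0159), and Rgs1, at 4.19 ± 1.14 FPKM in epididymal and 10.7 ± 3.37 FPKM in inguinal libraries (−1.23 ± 0.32, adjusted p = 0.043). Rgs1 without normal-diet inguinal replicates 0 and 2 had a difference of like size (−1.29 ± 0.42) that was not called (adjusted p = 0.145), and the call was lost in 7 of 12 fits without a single library. The diet and depot comparisons share libraries, so the 4 sets of differences are not independent of each other.

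Brown adipocytes had 1 library per diet, so their values have no error and no test. In that pair, 8 of the 10 genes were higher on the high-fat diet. The share of all genes that were higher in this pair is not given here, so this count has no background. The summed level of 13 general macrophage genes was also higher, at 94.1 FPKM in the high-fat and 32.4 FPKM in the normal-diet library. Gpnmb had 14.6 FPKM in the high-fat and 0.0975 FPKM in the normal-diet library, and Rgs1 had 26.0 FPKM in the high-fat and 0.246 FPKM in the normal-diet one. Lgals3 had 125 FPKM in the high-fat and 57.6 FPKM in the normal-diet library, and Cd9 had 13.3 FPKM in the high-fat and 3.78 FPKM in the normal-diet one. Trem2 (7.96 FPKM), Tyrobp (29.8 FPKM), Atp6v0d2 (6.19 FPKM) and Tm4sf19 (3.02 FPKM) were measured in the high-fat brown library and listed at 0 in the normal-diet one. A listed 0 can be a failed estimate: of 3528 genes at 20 FPKM or more in high-fat epididymal libraries, 40 were listed at 0 in the normal-diet brown library and 12 to 28 in each of the other 13, while 14 widely expressed genes such as Actb and Hprt were above 0 there. Spp1, as in inguinal fat, was lower in the high-fat brown library (1.69 FPKM, against 3.72 FPKM on the normal diet), and so was Cd63 (126 FPKM, against 204 FPKM). Adgre1, the F4/80 antigen of mouse macrophages, had 4.30 FPKM in the high-fat and 0.157 FPKM in the normal-diet brown library. The cell makeup of these single libraries and their diet cannot be told apart.

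Over the 6 groups, the high-fat epididymal mean was the highest for all 10 genes. High-fat inguinal libraries came next for 8 of them, all but Spp1, where the normal-diet inguinal group was second, and Cd63, where the normal-diet brown library was. The normal-diet brown library was lowest for 8 genes and the high-fat inguinal group for the remaining pair, Spp1 and Cd63. Neighbours in these orders often did not differ beyond their spread: normal-diet epididymal and inguinal libraries overlapped for 8 of the 10 genes, and Spp1 and Rgs1 were lower without overlap in epididymal libraries, as 10.3% of all genes were. The libraries of a group also moved together. All 10 genes had their lowest value in replicate 2 of the high-fat epididymal group, and all 10 in replicate 2 of the high-fat inguinal group. How many of all genes were lowest in these libraries is not given here, so neither count has a background.

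The level of general macrophage genes was also higher in high-fat than in normal-diet epididymal libraries, but its inguinal means hardly differed between the diets. It is given beside the differences of the 10 genes. Averaged over the 13 genes as log2(FPKM + 0.5), it was 5.23, 5.30 and 4.51 in high-fat epididymal libraries, against 3.62, 4.24 and 3.48 in normal-diet ones, a difference of 1.23. High-fat epididymal replicate 2, lowest for all 10 genes, was also the lowest of its group on this measure. In inguinal libraries it was 3.42, 3.56 and 2.90 on the high-fat diet and 2.80, 3.95 and 2.91 on the normal diet, a difference of 0.07. Normal-diet inguinal replicate 1 was above all 3 high-fat inguinal libraries, and without normal-diet inguinal replicates 0 and 2 the difference was −0.66. The 10 genes were then expressed relative to this level in the same library. Gpnmb lay 3.12 to 3.19 log2 units above it in high-fat epididymal libraries, against 2.26 to 0.98 units below it in normal-diet ones. Relative to the macrophage level, 9 of the 10 genes (all but Cd63) still separated high-fat from normal-diet epididymal libraries, with a median difference of 3.00. On this scale 2.67% of all genes were higher without overlap, against 25.7% before the subtraction, which itself lowers that share. In inguinal libraries 6 were higher without overlap (9.64% of all genes were) and Spp1 was lower (5.59% of all genes were), with a median of 1.87. The spread within the high-fat epididymal group was smaller on this scale for 8 of the 10 genes, and within the high-fat inguinal group for 9 of them. The shares of all genes with a smaller spread are not given here, so these counts have no background.

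When the macrophage level was subtracted from every gene before the limma fit, the median of all genes shifted to −1.16 in the epididymal diet comparison. Each call was still a test against 0, so this shift itself lowers the share of all genes called higher. The shares set beside the counts below are therefore not a neutral background. In that fit 8 of the 10 genes were called higher on the high-fat diet in epididymal libraries, where 1.34% of all genes were. Gpnmb had a log2 difference of 4.87 ± 0.41, whereas Cd9 had 0.83 ± 0.41 (adjusted p = 0.0812) and Cd63 had −0.34 ± 0.40 (adjusted p = 0.45). In inguinal libraries 6 were called higher, where 2.33% of all genes were, and Spp1 was called lower (−2.80 ± 0.48, adjusted p = 0.000364). The interaction was called for 3 genes, Spp1, Gpnmb and Rgs1, where 0.488% of all genes were called in that direction. Between the depots on the high-fat diet 2 genes were called, Gpnmb and Spp1, where 0.194% of all genes were and the median of all genes lay at −1.68. The other 8 genes were therefore not called different between the depots on the high-fat diet once the macrophage level was subtracted.

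**Figure D3:**
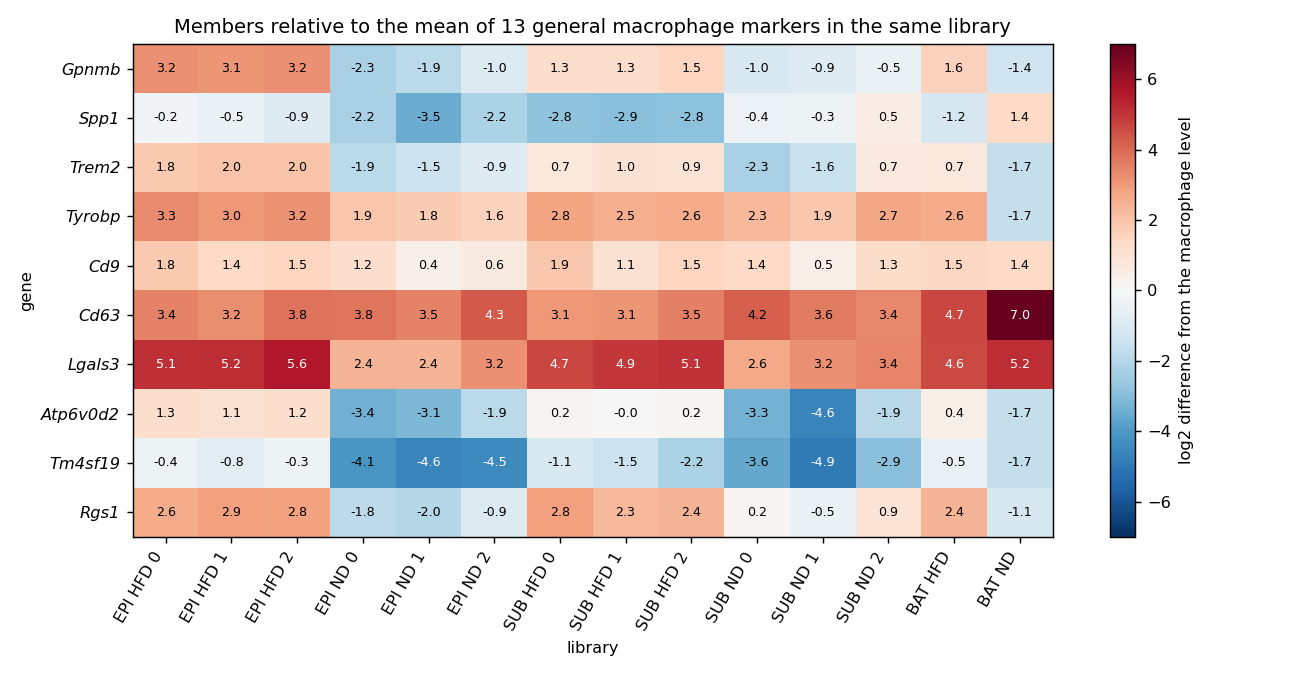
Level of each gene minus the mean log2(FPKM + 0.5) of 13 general macrophage genes in the same library, in log2 units, for all 14 libraries (red above the macrophage level, blue below it). Gpnmb, Trem2, Atp6v0d2 and Rgs1 lie above the macrophage level in all 3 high-fat and below it in all 3 normal-diet epididymal libraries; in the normal-diet brown library Trem2, Tyrobp, Atp6v0d2 and Tm4sf19 are listed at 0 FPKM.

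Among genes listed around TREM2 and TYROBP signalling, calls on the high-fat diet were higher in epididymal and lower in inguinal libraries. Without normal-diet inguinal replicates 0 and 2 the inguinal median stayed negative but was smaller (−0.92 over 10 genes, against −1.82 over 11). That fit leaves 1 library in the group, so calls lost in it cannot show what the inguinal calls rested on. Of 14 genes listed for this pathway, 13 matched an identifier and 11 passed the filter on low values, and 6 of them rose in high-fat epididymal libraries while none fell (median 1.34). Among these were Syk, the kinase recruited by TYROBP (1.72 ± 0.37, limma adjusted p = 0.00629), and Cd300lb, a receptor that pairs with TYROBP (2.77 ± 0.55, adjusted p = 0.00412). In inguinal libraries 5 of the 11 fell and none rose (median −1.82), including Syk (−1.82 ± 0.37, adjusted p = 0.00592). The largest fall was that of Treml2, listed here as a receptor of the TREM family (−3.20 ± 0.57, adjusted p = 0.00336). Treml2 had 5.64, 1.04 and 11.9 FPKM in normal-diet inguinal replicates 0, 1 and 2, and at most 0.132 FPKM in every other library. The interaction was called for 5 of the 11, each with the larger value in epididymal libraries (median 3.03). The inguinal values moved with lymphocyte genes, all 11 of which fell (median −4.19; Cd79a by 4.96), and whose summed level was 7.7 to 15.1 FPKM in high-fat and 84.4 to 985 FPKM in normal-diet inguinal libraries. Without normal-diet inguinal replicates 0 and 2, 0 of 10 pathway genes tested were called in either direction in inguinal libraries (Syk −0.98 ± 0.40, adjusted p = 0.199), and the interaction was called for 4 of 10. Cd79a fell by 2.86 in that fit.

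Genes of lysosomes and lipid handling rose with the 10 genes in epididymal libraries. Of 13 lysosomal genes 10 rose and none fell there (median 1.82), with Cd68, a lysosomal glycoprotein of macrophages, at 3.19 ± 0.35 (limma adjusted p = 8.65e-05). In inguinal libraries 4 rose, led by the protease gene Ctsd (1.57 ± 0.29, adjusted p = 0.00383), and 1 fell. Of 14 other proton pump genes 13 rose in epididymal libraries (median 0.99) and 7 in inguinal ones (median 0.55), with none falling. The V0 subunit Atp6v0a1 led both, at 2.21 ± 0.22 and 1.43 ± 0.22. Atp6v0d1, the ubiquitous d subunit and paralog of Atp6v0d2, had smaller differences than its paralog, with 99.0 ± 5.58 FPKM in high-fat and 65.8 ± 9.14 FPKM in normal-diet epididymal libraries (0.59 ± 0.16, adjusted p = 0.0218), and its inguinal difference was 0.68 ± 0.16 (adjusted p = 0.0132). The d2 isoform, at 74.6 ± 20.0 FPKM in high-fat epididymal libraries, thus came near its paralog there, whereas it had 1.62 ± 0.944 FPKM in normal-diet ones. Of 14 lipid handling genes 8 rose in epididymal libraries (median 1.16), led by Nceh1, a cholesterol ester hydrolase (3.51 ± 0.36, adjusted p = 5.58e-05), and 3 rose in inguinal ones, led by Lpl, the lipoprotein lipase that adipocytes also make (1.37 ± 0.33, adjusted p = 0.0149). No proton pump or lipid handling gene was called lower in either depot. On leaving out normal-diet inguinal replicates 0 and 2, a fit in which 424 genes in all were called higher and 480 lower in inguinal libraries, against 1391 and 1523 with them, the inguinal calls were 0 of the lysosomal genes, 1 higher of the proton pump genes and 1 higher of the lipid handling genes. In it Atp6v0a1 was called (1.04, adjusted p = 0.0484), and Ctsd (0.89, adjusted p = 0.0908), Atp6v0d1 (0.47, adjusted p = 0.226) and Lpl (0.75, adjusted p = 0.288) were not.

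Other genes often listed for lipid-laden macrophages also rose: 10 of 11 in epididymal libraries (median 1.96) and 5 of 11 in inguinal ones (median 0.90), where Fcgr2b, an inhibitory Fc receptor, fell (−1.67 ± 0.54, limma adjusted p = 0.0499). In the fit without normal-diet inguinal replicates 0 and 2, 3 rose and 0 fell in inguinal libraries (Fcgr2b −2.12, adjusted p = 0.103). The macrophage elastase Mmp12 led both, at 4.78 ± 0.28 in epididymal and 4.62 ± 0.28 in inguinal libraries. It had 387 ± 108 FPKM in high-fat and 13.4 ± 2.99 FPKM in normal-diet epididymal libraries, and 48.7 ± 12.2 FPKM in high-fat and 1.497 ± 0.441 FPKM in normal-diet inguinal ones. Its interaction was not called (0.16, 95% confidence interval −0.69 to 1.02, adjusted p = 0.857). Itgax, the CD11c integrin, rose by 3.62 ± 0.29 in epididymal and 1.82 ± 0.29 in inguinal libraries. Of the 13 general macrophage genes 5 rose in epididymal libraries, led by Mpeg1, a pore-forming protein of phagocytes (2.80 ± 0.23), with Adgre1 at 2.55 ± 0.37, and 0 of 13 were called in inguinal ones. Their inguinal median was 0.09, and −0.75 over 12 genes without normal-diet inguinal replicates 0 and 2. Of 9 genes of resident macrophages none rose in epididymal libraries and Cd163, a haemoglobin scavenger receptor (−2.55 ± 0.66, adjusted p = 0.017), and Timd4, a receptor for phosphatidylserine (−1.71 ± 0.37, adjusted p = 0.00695), fell. The inguinal median of these 9 genes was −0.62, and −2.19 without normal-diet inguinal replicates 0 and 2. Among 5 neutrophil genes tested, S100a8 alone rose in epididymal libraries (3.15 ± 0.95, adjusted p = 0.0365). The median of the 5 was −0.21 there, with 2 of them above 0 and 0 called lower. S100a9 went the other way from S100a8 (−1.93).

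Relatives of the 10 genes gave mixed counts. Of 8 osteopontin receptor genes 4 rose in epididymal libraries, led by Cd44 (2.79 ± 0.30, limma adjusted p = 7.07e-05). In inguinal libraries 2 rose, led by the integrin gene Itgb5 (1.46 ± 0.30), and 2 fell, led by Itga4, an integrin that lymphocytes carry (−2.42 ± 0.51, adjusted p = 0.00758). Of 6 other galectin genes none rose in epididymal libraries and Lgals12, an adipocyte galectin, fell (−1.03 ± 0.29, adjusted p = 0.0259), while in inguinal libraries Lgals1 rose (1.43 ± 0.34, adjusted p = 0.0127) and Lgals9 fell (−0.79 ± 0.19). Of 11 other tetraspanin and L6 genes 2 rose in epididymal libraries, led by the leukocyte tetraspanin Cd53 (1.96 ± 0.55), and Tm4sf1 fell (−2.89 ± 0.27). Tm4sf1 is a gene of endothelial cells, and 5 of 5 endothelial marker genes fell there as well. In inguinal libraries 4 of the 11 rose, led by Tm4sf5 (1.81 ± 0.40), and 3 fell, led by Cd37, a tetraspanin of B cells (−3.65 ± 0.67, adjusted p = 0.00402). Of 9 other RGS genes 2 rose in epididymal libraries, led by Rgs2 (2.49 ± 0.33), and 3 fell, led by Rgs5, a gene of pericytes (−2.81 ± 0.26). In inguinal libraries Rgs5 rose (1.13 ± 0.26) and Rgs14 fell (−2.72 ± 0.61). Of the MiT transcription factors, which drive lysosomal genes and Gpnmb in other settings, Tfe3 rose in epididymal libraries (0.71 ± 0.20, adjusted p = 0.0251), Mitf had 0.62 ± 0.26 (adjusted p = 0.12), and Tfec, at 0.669 ± 0.446 FPKM in high-fat and 0.223 ± 0.248 FPKM in normal-diet epididymal libraries, was below the filter. None of the 3 that were tested was called in inguinal libraries. When normal-diet inguinal replicates 0 and 2 were left out, the inguinal calls among these relatives were 0 higher and 1 lower for the osteopontin receptors, the galectins and the tetraspanin and L6 genes alike, and 0 in either direction for the RGS genes. Of those named here for inguinal libraries, Lgals9 was called in that fit (−0.86, adjusted p = 0.0373), whereas Itgb5 (0.68), Itga4 (−1.02), Lgals1 (1.006), Tm4sf5 (1.81), Cd37 (−1.71), Rgs5 (0.78) and Rgs14 (−1.42) were not. Dcstamp, a gene of fusing macrophages and osteoclasts, rose by 2.59 ± 0.34 in epididymal and 2.01 ± 0.34 in inguinal libraries. Of the 3 genes tested from its list, 2 rose and 0 fell in epididymal libraries. In inguinal libraries 1 rose, Dcstamp, and 1 fell, Nfatc1. Without normal-diet inguinal replicates 0 and 2 these inguinal differences were 2.06 for Dcstamp and −0.21 for Nfatc1.

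**Figure D4:**
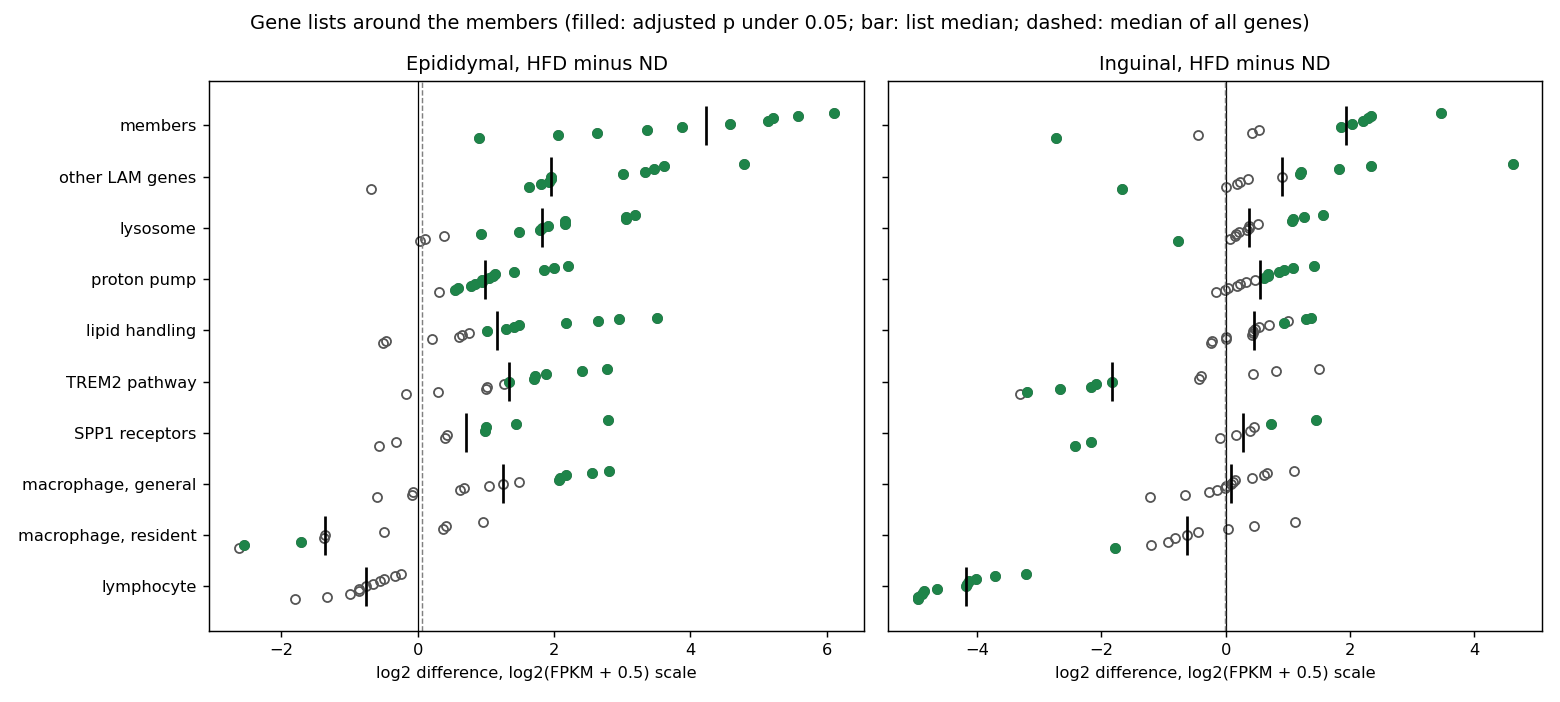
Log2 difference between high-fat and normal-diet libraries for each gene of 10 lists, in epididymal (left) and inguinal (right) adipocytes, on the log2(FPKM + 0.5) scale; filled points have a limma adjusted p under 0.05, black bars are list medians and the dashed line is the median of all genes. The 10 genes described here have a median of 4.23 in epididymal libraries, against 1.25 for general macrophage genes, and lymphocyte genes have a median of −4.19 in inguinal libraries.

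Across the 12 white libraries the genes went up and down together, apart from Spp1 and Cd63. Pearson correlations of log2(FPKM + 0.5) ran from 0.82 to 0.99 over the 28 pairs without these genes. Over the 9 pairs with Spp1 the median was 0.52 (0.38 to 0.70). These correlations describe 12 libraries that fall into 4 groups, so they mostly follow the group differences, and the genes of a library share its RNA. Outside the 10 genes, 10677 genes averaged at least 2 FPKM over the white libraries. Of these, the genes whose profile was most like the mean of the 10 were Lipa, a lysosomal lipase (r = 0.99 over 12 libraries), Colgalt1 (0.99) and Slc15a3 (0.99), followed by Myo1f, Igsf6, Cdk18, Sirpa, Il1rn, Tlr13 and Mpeg1 (0.98 to 0.99). For Gpnmb alone it was Psap (0.99), the precursor of lysosomal saposins, for Lgals3 Cstb (1.00), a cathepsin inhibitor, for Trem2 Cdk18 (0.98), for Tyrobp Heatr5a (0.99) and for Atp6v0d2 F7 (0.98). For Cd9 it was Plekhb2 (0.98), for Tm4sf19 Ccrl2 (0.98) and for Cd63 Arhgap10 (0.96). For Spp1 it was Glrx (0.93), the lowest of these values.

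**Figure D5:**
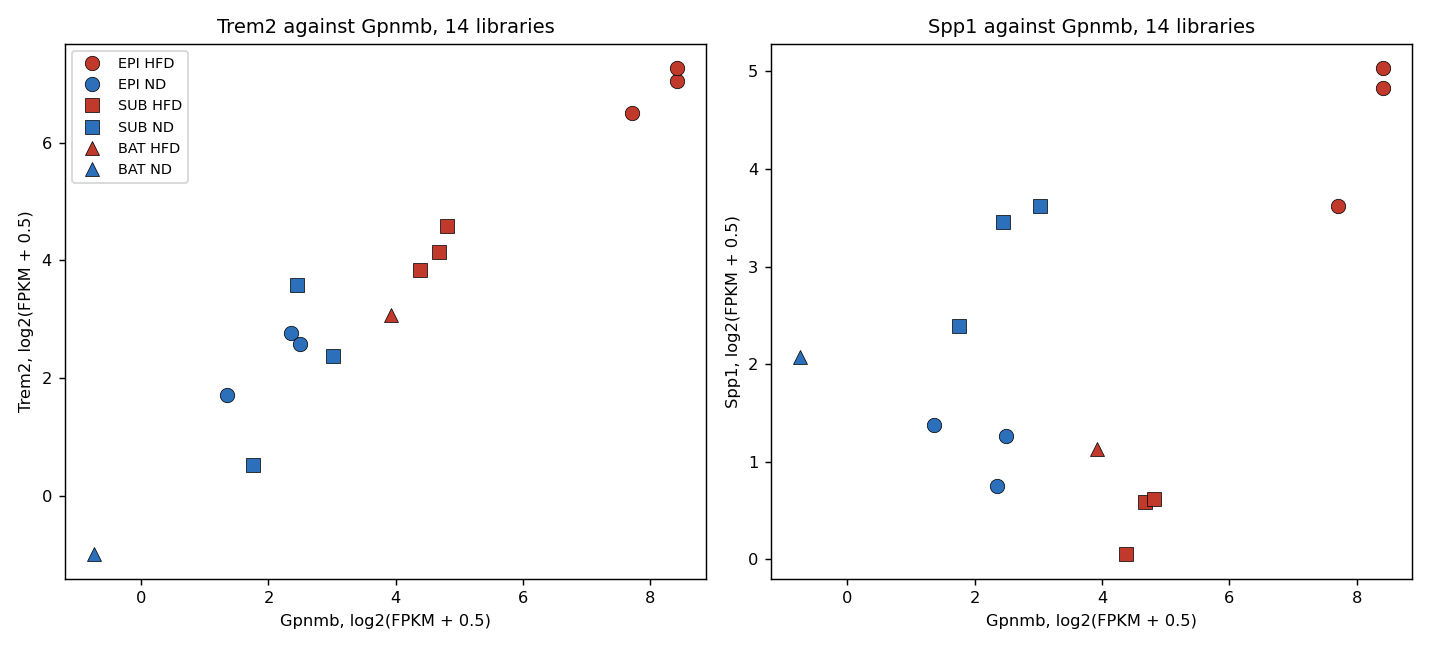
Trem2 (left) and Spp1 (right) against Gpnmb in all 14 libraries, each axis as log2(FPKM + 0.5), with depot by symbol and diet by colour. Trem2 runs with Gpnmb through all groups, whereas Spp1 is high with Gpnmb in high-fat epididymal libraries (11.8 to 32.2 FPKM) and low in high-fat inguinal ones (0.536 to 1.04 FPKM), where Gpnmb is intermediate.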

How the data were processed

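RNA was measured in 14 adipocyte libraries, 12 from white depots (3 per group) and 2 from brown fat (1 per diet). The authors deposited FPKM values per gene in 1 table per library. Per the submitters' processing notes, TopHat2 2.0.9, Cuffdiff 2.1.1 and mm10 were used; the annotation, strand setting and further normalization are not given in the sources used here. Identifiers were matched to symbols (36638 of 38553). FPKM steps did not give whole reads (3.4% of 500 low-gene ratios lay within 1% of 1 value), so the depth is unknown; 15399 to 18029 genes were above 0 per library. FPKM is relative within a library, so a rise of abundant genes lowers the others.

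White libraries were tested with limma 3.58.1 (R 4.3.3; lmFit, contrasts and eBayes with trend) on log2(FPKM + 0.5), with 4 group means and 8 residual degrees of freedom, two-sided, adjusted over 14959 genes at or above 0.5 FPKM in at least 3 libraries. Fold changes on this scale understate low genes. The p-values measure the spread between pooled libraries, and an exact test of 3 against 3 cannot go below 0.1. The fit was tested on simulated data. Figures used Python 3.11.15 and matplotlib 3.10.9. The members and lists were chosen with earlier results of these data known. Besides the 10 genes, the rule named the gene with the largest called difference each way per list and diet comparison, plus Atp6v0d1, Adgre1, Itgax, Mmp12, Mitf and Tfec; Syk and a few others were named after their values were seen. A few genes that the rule names are not reported here. Same-numbered high-fat libraries had correlations of 0.184, 0.111 and 0.146 between depots. The same-numbered libraries of the other comparisons had 0.00688 to 0.272. All these values are positive, but none between libraries of different numbers is given beside them. They therefore cannot decide whether same-numbered libraries were paired. The replicate block changed none of the 10 calls between depots on the high-fat diet. Alternatives were 12 fits without a single library and 11 other settings.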

Additional observations from a re-analysis of the deposited data

Results flagged for a closer look

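The diet difference of 6 of the 10 genes differed between epididymal and inguinal libraries in the limma interaction test, each larger in epididymal libraries. The gap was 6.10 log2 units for Spp1, 3.90 for Gpnmb, 3.23 for Rgs1, 2.84 for Tm4sf19, 2.20 for Tyrobp and 2.01 for Lgals3. The Lgals3 call was lost in 10 of 12 fits without a single library, and the Tm4sf19 call in 2 of 12. Without normal-diet inguinal replicates 0 and 2, Tm4sf19 was not called (2.44, adjusted p = 0.072), and Trem2 (2.77, adjusted p = 0.0159) and Cd63 (1.97, adjusted p = 0.00622) were. For Spp1 all 3 high-fat epididymal libraries lay above, and all 3 high-fat inguinal libraries below, the normal-diet libraries of the same depot. The macrophage level differed by 1.23 log2 units between diets in epididymal libraries and by 0.07 in inguinal ones (−0.66 without normal-diet inguinal replicates 0 and 2), and with it subtracted the gap was still called for Spp1 (4.93), Gpnmb (2.74) and Rgs1 (2.07).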

How the results depend on the processing

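Of 1140 values of the 10 genes under the alternatives, 1029 kept their direction and side of the threshold, 68 lost the call, 20 gained it and 23 reversed. Without a single library the members called higher numbered 9 to 10 (epididymal diet), 5 to 6 (inguinal diet, with 1 to 2 lower), 4 to 9 (interaction), 9 to 10 (depots, high-fat) and 0 to 1 (depots, normal diet, with 0 to 2 lower). With only the 2 groups compared, 3 members were higher in inguinal fat and 0 lower between depots on the normal diet. Without normal-diet inguinal replicates 0 and 2 together, 2 were lower in inguinal fat. With the macrophage level subtracted, 3 interactions and 2 high-fat depot differences were called. Between depots on the normal diet 2 were higher with array weights, and 1 was lower with pseudocount 1, no filter, array weights or without those replicates. The correlations of same-numbered libraries in the diet and normal-diet depot comparisons (0.00688 to 0.272) cannot decide whether these libraries were paired. The replicate block left 1 lower call between depots on the normal diet and gave 8 interactions. Reversed values were Cd63 in the epididymal diet comparison (−0.34, macrophage level subtracted) and uncalled normal-diet depot differences: Gpnmb 0.24 (array weights; −0.67 to 0.0169 without single libraries); Trem2 −0.36 (macrophage level subtracted), −0.0174 (without those replicates) and −0.62 to 0.91; Tyrobp −0.50, −0.26 and −0.18 to 0.28 likewise; Cd9 −0.30 (macrophage level subtracted); Lgals3 −0.0146 (quantile), −0.45 (macrophage level subtracted), −0.73 (without those replicates) and −0.33 to 0.52; Tm4sf19 0.0737 (pseudocount 0.1), 0.0258 (TMM), 0.21 (array weights), 0.39 (without those replicates) and −0.21 to 0.29. The causes were not tested. Over all genes, 1818 rose and 1100 fell in epididymal libraries (1109 to 2275 and 677 to 1394 without single libraries), and 1391 rose and 1523 fell in inguinal ones (739 to 2407 and 915 to 2220). The interaction was called higher for 718 and lower for 362 genes (255 to 1545 and 161 to 996). Between depots the counts were 1059 and 528 on the high-fat diet (455 to 1416 and 273 to 735) and 353 and 621 on the normal diet (83 to 1465 and 168 to 1523). With the macrophage level subtracted they were 201 and 7325, 349 and 666, 73 and 1128, 29 and 12694, and 38 and 1004 in the same order. The share of interaction calls that were higher was 66.5%, against 56.1% with TMM and 48.7% with quantile normalization. Depth limits are unknown without counts.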

Other observations

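Markers of other cell types in the same libraries gave these counts on the high-fat diet. All 5 endothelial genes fell in epididymal libraries, led by Kdr (−3.18), and 0 of 5 were called in inguinal ones. Leaving out normal-diet inguinal replicates 0 and 2, the inguinal differences of these 5 ran from −0.59 (Kdr) to 1.14 (Cldn5). Of 5 fibroblast genes 4 fell in epididymal libraries, led by Dcn (−2.92), and in inguinal libraries 4 fell, led by Pi16 (−2.38), while Dpt rose (1.26). Of 4 dendritic cell genes tested 2 fell in each depot, led by Cd209a in epididymal (−2.36) and Flt3 in inguinal libraries (−1.75). Among 8 adipocyte genes Lep alone rose in both depots (2.87 in epididymal and 3.38 in inguinal libraries). Of 4 brown fat genes Elovl3 rose in inguinal libraries (1.39), and 0 of 4 mesothelial genes were called in either depot. Retnlg, a neutrophil gene, fell in inguinal libraries (−2.79), and so did Nfatc1, a gene of osteoclasts (−0.99), and Timd4 (−1.79). Of 11 lymphocyte genes 0 were called in epididymal libraries. Without normal-diet inguinal replicates 0 and 2, the inguinal calls of Dpt (0.38, limma adjusted p = 0.522), Nfatc1 (−0.21, adjusted p = 0.68), Elovl3 (1.03, adjusted p = 0.325) and Retnlg (−2.97, adjusted p = 0.137) were lost, Flt3 was below the filter on low values, and Pi16 (−3.73), Timd4 (−2.19) and Lep (2.61) were called.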
